A study of Mus musculus with 2 samples.

Results

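Imprinted genes are described here in facial prominences, the swellings that form the face, taken from B6NCrl mouse embryos aged 12.5 days. The set is a fixed list of 45 gene symbols, and each symbol equalled exactly 1 of the 55536 genes in the tables made with GENCODE annotation release M21. PolyA plus RNA-seq was available for 2 biological replicates of 1 group, with no treatment, mutant or second age. Tissue of 120 embryos was pooled for replicate 1 and tissue of 88 for replicate 2, males and females together, all described as healthy. For each library 10 ng of RNA were used, with oligo-dT priming, added ERCC spike-in RNAs and cutting by tagmentation. The gene tables summed to 28705073 expected counts in replicate 1 and 41092194 in replicate 2.

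An imprinted gene is transcribed mainly from the copy inherited from a single parent. DNA methylation laid down in the egg or the sperm at an imprinting control region marks the parental copies, and ZFP57 and ZFP445, which recruit TRIM28, help that mark to survive in the early embryo. Many imprinted genes lie in clusters under shared control and act on growth, placenta, metabolism and the nervous system. The parental side given below for each gene is textbook knowledge about the mouse. The embryos were of a single strain and the tables hold no counts per allele, so the side was not measured. In some genes it holds only in certain tissues: Grb10 and Ube3a, for example, change their imprinted state in neurons, and several genes of the Kcnq1 cluster are imprinted mainly in the placenta.

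Levels are given as TPM, a share of transcripts corrected for length, for replicate 1 and then replicate 2. A gene counted as detected when its TPM was at least 1 in both libraries. Library differences are log2((TPM + 1) of replicate 2 over replicate 1). For expected counts, 95% intervals of the ratio of replicate 2 to replicate 1, each divided by its summed gene counts, are given, and these cover counting error only, since the labels name no molecular identifiers. With 2 libraries an exact 2-sided sign-flip test cannot go below p = 0.5, so no p-value is given.

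Several of these genes have microRNAs within their spans, most of them on the same strand as the gene. At Rtl1, 11 mature sequences lie on the opposite strand and are not carried by the Rtl1 transcript. RefSeq's mouse GRCm38.p6 table placed 55 mature microRNAs from 29 microRNA genes inside 8 of the 45 genes. In the sequences below, written 5′ to 3′, capitals mark the seed, bases 2 to 8, with which a microRNA pairs to its targets. The first pair is H19's microRNA, whose 5p arm lies at chr7:142577112-142577133 on the minus strand, followed by single arms hosted by Igf2 (minus strand, chr7:142654932-142654952) and Mest (plus strand, chr6:30741314-30741336).
mmu-miR-675-5p (H19): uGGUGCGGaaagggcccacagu
mmu-miR-675-3p (H19): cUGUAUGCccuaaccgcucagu
mmu-miR-483-3p (Igf2): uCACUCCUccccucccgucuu
mmu-miR-335-5p (Mest): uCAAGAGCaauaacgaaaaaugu

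The Dlk1-Meg3 cluster on chromosome 12 held most of the rest. The following arms, all on the plus strand, were chosen to show 1 or more for each gene of the cluster with microRNAs in its span. They run from miR-770-5p at chr12:109563710-109563731 to miR-410-3p at chr12:109743764-109743784. The arms labelled Rtl1 lie on the strand opposite to Rtl1.
mmu-miR-770-5p (Meg3): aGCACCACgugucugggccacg
mmu-miR-431-5p (Rtl1): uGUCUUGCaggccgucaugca
mmu-miR-433-3p (Rtl1): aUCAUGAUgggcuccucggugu
mmu-miR-127-3p (Rtl1): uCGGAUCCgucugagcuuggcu
mmu-miR-370-3p (Rian): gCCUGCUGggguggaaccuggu
mmu-miR-134-5p (Mirg): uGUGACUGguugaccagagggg
mmu-miR-410-3p (Mirg): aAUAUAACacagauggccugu
mmu-miR-453 (Mirg): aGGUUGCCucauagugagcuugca
mmu-miR-496a-5p (Mirg): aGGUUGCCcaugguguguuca

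The 55 mature sequences held 54 seeds, and the last pair listed, miR-453 and miR-496a-5p of Mirg, had the only seed that occurred more than once. All 11 mature microRNAs encoded opposite Rtl1 were complementary over their whole length to the Rtl1 transcript of 6358 bases, as their position on the other strand of the same DNA requires. Mirg hosted 26 of the mature sequences, Rian 6 and Meg3 2. The libraries did not measure these small RNAs. Of 33 microRNA genes and 13 snoRNA genes annotated within the spans of the 45 genes, 2 had an effective length above 0, and together they received 0 counts in replicate 1 and 2 in replicate 2. The levels below therefore belong to the long host transcripts.

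As a set, these 45 imprinted genes were abundant in this tissue. They were listed with earlier results of these data known. The comparisons here therefore describe this list and are no test of imprinted genes in general. A list of 29 further imprinted genes, described below, had a median of only 4.17 TPM. Of the 45 genes, 42 were detected, against 28.5% of all annotated genes and 60.7% of protein-coding genes. At least 100 TPM in both libraries was reached by 14 of the 45, or 31.1%, against 3.05% of all genes and 7.26% of protein-coding genes. The median of the mean TPM was 34.7 over the 45 genes and 4.79 over protein-coding genes. The 45 genes summed to 9901 TPM (0.990% of the total) in the first library and 9378 TPM (0.938%) in the second. Their levels ran from Ascl2 at 0.40 and 0.23 TPM to Nnat at 1920.3 and 1493 TPM.

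**Figure D1:**
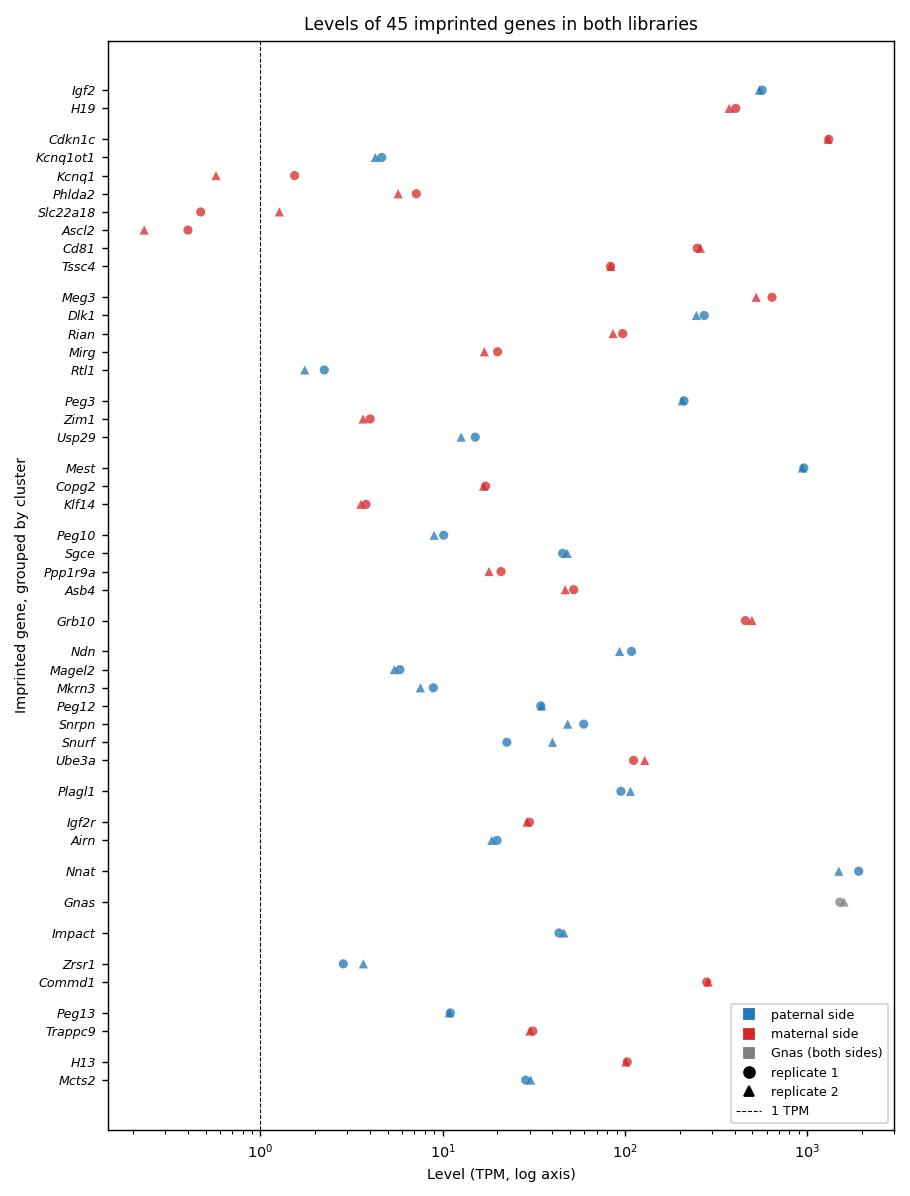
Level of each of the 45 imprinted genes in TPM on a log axis, circles for replicate 1 and triangles for replicate 2, grouped by cluster and coloured by textbook parental side. Kcnq1, Slc22a18 and Ascl2 have a library left of the dashed line at 1 TPM, and Nnat, Gnas and Cdkn1c lie furthest right.

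Both parental sides were represented by abundant genes. All 22 paternally expressed genes and 19 of the 22 maternally expressed genes were detected, with median levels of 33.0 and 40.2 TPM. Gnas, with transcripts of both sides, was kept apart. Paternally expressed genes summed to 4450 and 3962 TPM and maternally expressed genes to 3938 and 3820 TPM. The ratio of the sums was 1.13 in replicate 1 and 1.04 in replicate 2 (1.08 ± 0.0658, SD, n = 2). This ratio turned below 1 when Gnas was added to the maternal side (0.774) or when Nnat and Cdkn1c were left out (0.973), so which side was larger depended on single genes. The maternal sum also held genes whose side is known only from certain tissues, among them Cd81, Tssc4 and Ube3a. The ratio therefore does not measure the output of the parental copies.

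**Figure D2:**
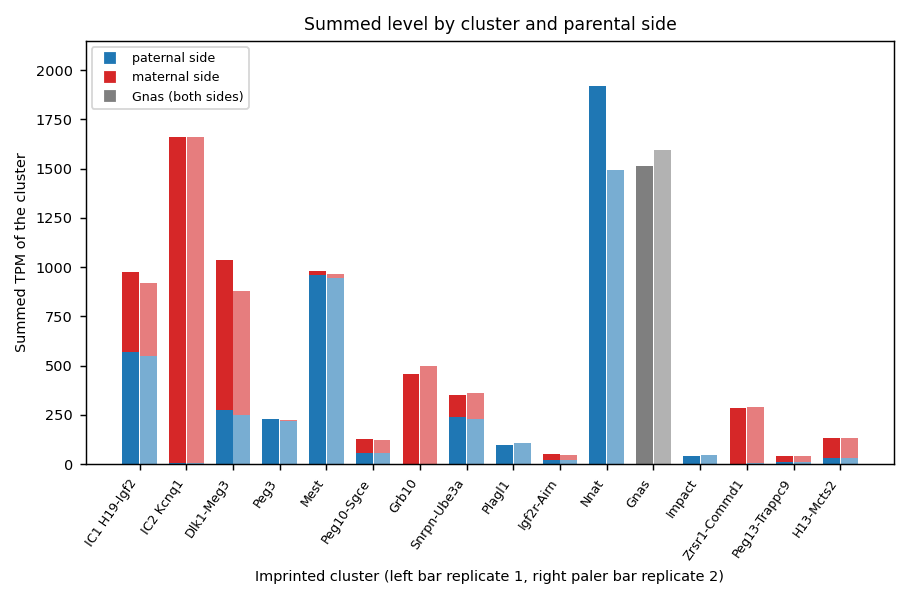
Summed TPM of the imprinted genes of each of 16 clusters or single loci, left bars for replicate 1 and paler right bars for replicate 2, stacked by parental side. The Nnat, Kcnq1 and Gnas loci have the highest bars, and the Kcnq1 cluster bar is almost wholly maternal.

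In the H19-Igf2 cluster on chromosome 7 the growth factor gene was the more abundant of the pair by TPM. Igf2 (ENSMUSG00000048583, chr7:142650766-142666816, minus strand), paternally expressed and a main fetal growth factor, stood at 567 and 548 TPM. H19 (chr7:142575529-142578143, minus strand), a maternally expressed noncoding RNA controlled by the same region, stood at 406 and 374 TPM. The Igf2 to H19 ratio in TPM was 1.40 and 1.47 (1.43 ± 0.0484, SD, n = 2). Ins2, the insulin gene beside Igf2, had 0 counts in replicate 1 and 1 in replicate 2.

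Igf2 RNA was spread over several annotated starts. When transcript starts within 500 bases were joined, the gene had 7 start groups. Group 1, the most upstream, took 35.1% and 36.5% of Igf2 TPM, and group 7, a single short internal transcript, took 35.3% and 34.8%. By expected counts, which are not corrected for length, the order differed: group 4 took 38.5% and 39.0% of Igf2 counts and group 1 took 13.6% and 14.3%. The leading start of Igf2 was therefore not settled by these tables, although both libraries gave nearly equal shares on each scale. The transcripts of groups 1 and 7 are 650 and 958 bases long, and that of group 4 is 4722 bases long. The Igf2 level in TPM, and with it the Igf2 to H19 ratio, depends on how reads were shared among them.

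Igf2r, the receptor that carries IGF2 to the lysosome and is maternally expressed, stood at 30.0 and 29.0 TPM (chr17:12682406-12769664, minus strand). Igf2 TPM was 18.9 times that of Igf2r in both libraries. Airn, the paternally expressed antisense RNA that silences Igf2r on the paternal chromosome, stood at 19.9 and 18.6 TPM (chr17:12741311-12860136, plus strand). That level came from only 296 and 386 expected counts, against 4728 and 6461 for Igf2r. The annotated Airn transcripts are 435 to 1375 bases long within a span of 118826 bases. The TPM of Airn thus rests on a short length and does not measure unspliced RNA over the whole span. The spans of Igf2r and Airn overlap by 28354 bases on opposite strands. The sources used here do not give the strand setting of the counting, so reads in the overlap cannot be told apart for this pair or for the other opposite-strand pairs below.

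The neighbouring Kcnq1 cluster held both the third most abundant imprinted gene and the 3 least abundant. Cdkn1c, a maternally expressed inhibitor of the cell cycle (chr7:143458339-143461050, minus strand), reached 1315 and 1303 TPM and ranked 46 among protein-coding genes by mean TPM. Cd81, a membrane tetraspanin, stood at 249 and 259.6 TPM, and Tssc4, a splicing factor gene, at 83.5 and 83.7 TPM. Both lie at the edge of the cluster, where imprinting is known mainly from extraembryonic tissue. Phlda2, which restrains placental growth, stood at only 7.17 and 5.70 TPM, from 81 and 98 expected counts.

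The 3 genes below the detection threshold all belonged to this cluster. Slc22a18, a transporter gene, stood at 0.47 and 1.27 TPM from 12 and 39 counts. Ascl2, a transcription factor needed in the trophoblast, stood at 0.40 and 0.23 TPM from 11 and 9 counts. The 5 trophoblast markers summed to 0.19 and 0.29 TPM, none of them was detected, and Tpbpa and Prl3d1 were at 0 in both libraries.

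Kcnq1, a potassium channel gene, stood at 1.54 and 0.57 TPM. Its expected counts were 38.2 and 43.9, and the count ratio interval of 0.513 to 1.29 included 1. A single short transcript took 57.7% of its TPM in replicate 1 from 3 counts, and 0 in replicate 2. The TPM difference between the libraries thus moved with a handful of reads on a short transcript.

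Kcnq1ot1, the paternally expressed antisense RNA that silences the cluster, stood at 4.63 and 4.27 TPM (chr7:143203458-143296549, minus strand). Its expected counts were 7936 and 10385, spread over an unspliced transcript of 93092 bases, all of which lies within Kcnq1 on the other strand. Cdkn1c TPM was 284 and 305 times that of Kcnq1ot1, and 197 and 215 times under the older annotation release M4. The expected counts of Cdkn1c were 34114 and 48944, so the ratio in TPM rests largely on the correction for length.

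The Dlk1-Meg3 cluster on chromosome 12 was led by a noncoding RNA. Meg3, a maternally expressed noncoding RNA (chr12:109541001-109571726, plus strand), stood at 642 and 526 TPM. Dlk1, a paternally expressed membrane ligand that restrains differentiation, stood at 273 and 247 TPM. Rian, the maternally expressed RNA that carries snoRNAs, stood at 97.3 and 86.2 TPM. Further along the same strand, Mirg, which hosts 26 of the 55 mature microRNAs, stood at 20.0 and 16.9 TPM. Rtl1, a paternally expressed gene derived from a retrotransposon and needed in the placenta, stood at 2.24 and 1.75 TPM from 258 and 286 counts.

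The level of the maternal noncoding RNAs was lower the further a gene lay from the Meg3 start. Meg3 TPM was 6.60 and 6.10 times that of Rian and 32.1 and 31.1 times that of Mirg. Meg3 TPM was 2.36 and 2.13 times that of Dlk1. All 5 genes were lower in replicate 2 on the TPM scale, under TMM scaling and under spike-in scaling, and all 5 count ratio intervals lay below 1. Of all detected genes, 42.2% were lower on these 3 scales and 14.8% had an interval below 1. The summed TPM was 1034 in replicate 1 and 878 in replicate 2, a log2 ratio of -0.24.

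Peg3, a paternally expressed zinc finger gene on chromosome 7 linked to growth and maternal behaviour, stood at 211 and 207 TPM. Its neighbours were far lower: Usp29, a deubiquitinase gene that starts from the same control region in the other direction, stood at 15.1 and 12.6 TPM, and Zim1, maternally expressed, at 4.00 and 3.66 TPM. Most of the Usp29 level came from a retained intron form (7.27 and 4.93 TPM) and a processed transcript (4.92 and 4.58 TPM). Each protein-coding transcript of Usp29 was at 0.56 TPM or below. Peg3 TPM was 14.0 and 16.3 times that of Usp29 and 52.8 and 56.5 times that of Zim1. Under the older annotation release M4, whose Usp29 counts were far lower, Peg3 over Usp29 was 455 and 319 and Peg3 over Zim1 was 78.5 and 71.4. A similar gradient held on chromosome 6, where Mest (chr6:30723547-30748465, plus strand), a paternally expressed gene of the mesoderm that encodes a hydrolase-like protein, stood at 959.7 and 944 TPM. Copg2, a coat protein gene that meets Mest tail to tail over 912 bases, stood at 17.2 and 16.8 TPM. Klf14, a maternally expressed transcription factor gene without introns, stood at 3.80 and 3.56 TPM.

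The Peg10-Sgce cluster, also on chromosome 6, summed to 129 and 122 TPM with no gene above 100. Peg10, another gene derived from a retrotransposon and needed in the placenta, stood at 10.1 and 8.98 TPM. Sgce, the sarcoglycan gene that shares its control region, stood at 45.5 and 48.3 TPM, 4.49 and 5.38 times Peg10 (2.51 and 3.19 times under release M4). On the maternal side, Asb4, which encodes a part of a ubiquitin ligase, stood at 52.4 and 47.1 TPM, and Ppp1r9a, which encodes neurabin, at 20.9 and 18.0 TPM.

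Grb10, an adaptor that restrains insulin and growth factor signalling (chr11:11930508-12038683, minus strand), stood at 459 and 498 TPM. It is expressed from the maternal copy in most tissues and from the paternal copy in neurons, through different promoters. Plagl1, a paternally expressed zinc finger gene that affects many other imprinted genes, stood at 95.2 and 107 TPM. Both were higher in replicate 2 by TPM, and the count ratio intervals were 1.07 to 1.10 for Grb10 and 1.04 to 1.10 for Plagl1. Under spike-in scaling, which moved the median of all detected genes to -0.13, Grb10 had a log2 ratio of -0.02 and Plagl1 of 0.03.

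In the Snrpn-Ube3a region of chromosome 7, the one involved in the Prader-Willi and Angelman syndromes in humans, Ndn was the leading paternal gene at 109 and 93.5 TPM. It encodes necdin, which acts in differentiating neurons and other cells. Its relative Magel2 stood at 5.83 and 5.43 TPM, so that Ndn was 18.7 and 17.2 times higher, and 43.3 and 40.1 times higher under the older annotation release M4. Mkrn3, a ubiquitin ligase gene known for its effect on puberty, stood at 8.89 and 7.55 TPM, and Peg12, an inhibitor of GSK3, at 34.6 and 34.9 TPM. Snrpn, a splicing protein gene, stood at 59.5 and 48.5 TPM, with 97.4% and 99.3% of that from its downstream start.

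Ube3a, the ubiquitin ligase gene silenced on the paternal copy in neurons, stood at 112 and 129 TPM. Its count ratio interval of 0.985 to 1.05 included 1, so its TPM moved by more than its counts did.

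Snurf, a short upstream reading frame of the Snrpn transcript, was the only one of the 45 genes that was detected and past a log2 ratio of 0.5, at 22.5 and 40.1 TPM (log2 ratio 0.81). Its annotated transcript of 216 bases lies within Snrpn on the same strand, and its expected counts of 48.5 and 123 were fractional. Snrpn differed in the other direction, with a log2 ratio of -0.29. Taken as 1 unit, the pair had 2063 and 2450 counts and a count ratio of 0.832, with an interval of 0.784 to 0.882. The higher Snurf value thus came with a lower value for the pair.

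The 2 imprinted genes with the highest levels lay on chromosome 2. Nnat, a paternally expressed gene for a small membrane proteolipid first described in newborn brain (chr2:157560078-157562522, plus strand), stood at 1920.3 and 1493 TPM and ranked 31 among protein-coding genes. It lies within Blcap, a gene on the other strand that stood at 66.6 and 60.9 TPM. Gnas (chr2:174284320-174346744, plus strand), which encodes the stimulatory G protein subunit and several other products, stood at 1513 and 1597 TPM and ranked 33.

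Smaller loci paired an imprinted gene with the gene that houses it. Commd1, which acts in copper transport and NF-kappaB control, stood at 281 and 286 TPM, and Zrsr1, a retrocopy within it on the other strand, at 2.85 and 3.67 TPM. Trappc9, a vesicle transport gene, stood at 31.3 and 30.1 TPM. Peg13, the noncoding RNA within it on the same strand, stood at 11.0 and 10.9 TPM. Reads of unspliced Trappc9 RNA over Peg13 cannot be told apart from Peg13 RNA. H13, a signal peptide peptidase gene, stood at 103 and 101 TPM, and Mcts2, a retrocopy within it on the same strand, at 28.6 and 30.4 TPM. Impact, an inhibitor of the GCN2 kinase on chromosome 18, stood at 43.5 and 46.3 TPM.

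In these pairs the host, listed on the maternal side from textbook knowledge, was the higher. Whether the hosts were transcribed mainly from the maternal copy in this tissue was not measured. The ratios were 98.7 and 78.0 for Commd1 over Zrsr1 (160.5 and 125 under release M4). They were 2.84 and 2.76 for Trappc9 over Peg13, and 3.61 and 3.33 for H13 over Mcts2. H13 transcripts that end before the start of Mcts2 took 17.8% and 18.1% of H13 TPM, and those reaching beyond that start took 82.2% and 81.9%. Short H13 forms are known from the chromosome where Mcts2 is active. Here the short share held a retained intron form (11.3 and 11.0 TPM) and a protein-coding form (7.03 and 7.34 TPM). Their chromosome of origin was not measured.

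Imprinted genes often use separate promoters of which only some carry the imprint, so the share of each start was examined. The 45 genes had 309 annotated transcripts. Of the 35 genes with several, 31 had the same leading transcript in both libraries, and in 23 the leader took over 50% of the gene's TPM.

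For Gnas, 94.8% and 94.7% of TPM came from the start group of the Gs-alpha transcripts, 1434 and 1513 TPM, a product that is biallelic in most tissues. The most upstream group, that of the maternally expressed Nesp transcript, took 1.80% and 2.13%, or 27.3 and 34.0 TPM. The group of the paternally expressed XL-alpha-s transcript took 0.522% and 0.705%, or 7.90 and 11.3 TPM. The exon 1A group, also paternally expressed, took 2.04% and 1.59%. Nespas, the antisense RNA of the locus, stood at 6.80 and 8.42 TPM. Most Gnas RNA in this tissue thus belonged to the start that is least often imprinted.

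Mest, Plagl1, Meg3 and Grb10 likewise had a leading start group. For Mest, 98.0% of TPM in both libraries came from starts at the promoter known to be imprinted. For Plagl1 the share of the leading group was 97.6% and 98.1%, and for Meg3 90.1% and 90.2%. Grb10 had 95.4% and 96.6% from start group 2. Further downstream, start group 3 took 2.16% and 1.64% and start group 4 took 1.75% and 0.897%.

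**Figure D3:**
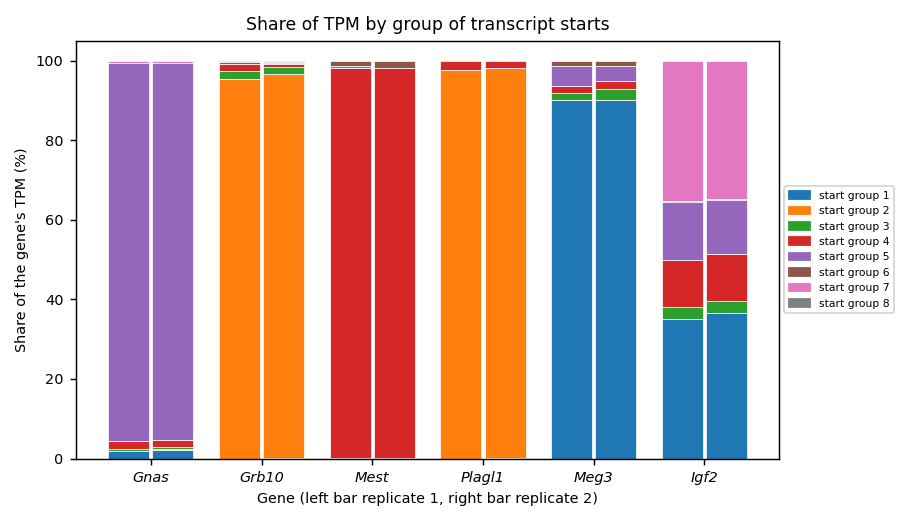
Percent of each gene's TPM by group of transcript starts, numbered in the direction of transcription, for Gnas, Grb10, Mest, Plagl1, Meg3 and Igf2, left bars for replicate 1 and right bars for replicate 2. A single group fills most of the bar in each gene except Igf2, and the 2 bars of each gene are nearly equal.

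The sequence before these starts is shown for Mest and Meg3, whose promoters are known to be methylated on 1 parental copy, and for Grb10, whose start groups differed so much in their share. The 250 bases before the RefSeq start of Mest (chr6:30737800-30738049, plus strand) and of Meg3 (chr12:109540746-109540995, plus strand) are given 5′ to 3′, from the GRCm38.p6 promoter table. Capitals mark the motif TGCCGC, or GCGGCA on the other strand, the hexamer that ZFP57 binds when its CpG is methylated.
Mest: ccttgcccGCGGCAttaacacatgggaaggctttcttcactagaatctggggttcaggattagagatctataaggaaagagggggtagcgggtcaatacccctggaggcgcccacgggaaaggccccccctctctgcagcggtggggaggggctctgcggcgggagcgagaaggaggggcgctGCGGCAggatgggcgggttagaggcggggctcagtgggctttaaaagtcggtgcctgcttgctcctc
Meg3: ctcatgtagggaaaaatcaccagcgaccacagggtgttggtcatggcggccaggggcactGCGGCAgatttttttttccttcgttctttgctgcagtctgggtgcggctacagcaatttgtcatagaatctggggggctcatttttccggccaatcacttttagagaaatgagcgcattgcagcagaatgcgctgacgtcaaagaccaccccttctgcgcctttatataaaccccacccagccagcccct

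The Mest window held 2 matches and 14 CpG, and the Meg3 window held 1 match and 10 CpG. These windows are not typical of the set, since most windows of the imprinted genes held no match, among them those of Peg3 and Kcnq1ot1. For Grb10, the windows before its major start (chr11:12037421-12037670, minus strand) and its minor downstream start (chr11:12027972-12028221, minus strand) are shown with capitals marking each CpG.
Grb10 major start: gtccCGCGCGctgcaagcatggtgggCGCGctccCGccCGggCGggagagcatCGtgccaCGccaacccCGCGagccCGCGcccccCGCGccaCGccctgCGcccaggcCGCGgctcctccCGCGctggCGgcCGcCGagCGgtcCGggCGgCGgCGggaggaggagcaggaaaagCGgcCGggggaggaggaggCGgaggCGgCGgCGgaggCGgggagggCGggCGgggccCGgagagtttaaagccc
Grb10 minor start: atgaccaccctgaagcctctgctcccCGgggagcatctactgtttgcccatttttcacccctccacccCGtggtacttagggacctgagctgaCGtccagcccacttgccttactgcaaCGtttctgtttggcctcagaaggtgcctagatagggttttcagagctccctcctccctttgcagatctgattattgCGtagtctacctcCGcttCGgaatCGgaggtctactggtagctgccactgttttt

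The window of the major Grb10 start held 40 CpG and that of the minor start 8. The minor start shown is that of start group 3, and start group 4 had no window. Which of these starts carries the imprint was not tested. Over the promoter table as a whole, 35 of the 45 genes had at least 1 window, and their windows of 300 bases numbered 51. TGCCGC in either orientation lay in 13 of these 51 windows, or 25.5%, and in 11.6% of all 32851 windows. Some windows overlap, among them the identical window of Snrpn and Snurf and a pair for Mest. Without overlapping windows, a choice made after the data were seen, 11 of 47 (23.4%) and 11.0% of all held it. The windows of imprinted genes were also richer in CpG, with a median of 14 against 7. Among windows with at least 10 CpG, 32.4% of those of imprinted genes and 22.5% of all held the motif. It was found for 7 of 17 paternally and 5 of 17 maternally expressed genes with a window, Snrpn and Snurf sharing theirs. A match describes the letters of a window and shows no binding.

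The list of genes known for keeping imprints was detected at middle to high levels. Of its 22 genes, 18 were detected, with a median of 69.7 TPM over the list. Trim28, the corepressor recruited by these zinc finger proteins, stood at 389 and 375 TPM, Zfp57 at 133 and 118 TPM, and Zfp445 at 85.8 and 78.5 TPM. Dnmt1, which copies methylation at replication, stood at 95.6 and 97.2 TPM and its partner Uhrf1 at 123 and 125 TPM. Ctcf, the insulator protein of the H19-Igf2 control region, stood at 119 and 108 TPM, and Dnmt3a, which sets methylation in the germline, at 172 and 179 TPM. The 4 that were not detected, Dnmt3l, Dppa3, Nlrp2 and Khdc3, are known from germ cells and the early embryo. None of the 18 differed by a log2 ratio of 0.25 between the libraries.

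A list of 29 further imprinted genes outside the 45 stood lower, with 20 (69.0%) detected and a median of 4.17 TPM. Of protein-coding genes 60.7% were detected, with a median of 4.79 TPM. At least 100 TPM in both libraries was reached by 1 of the 29 (3.45%), against 7.26% of protein-coding genes. Nap1l4, a histone chaperone gene at the edge of the Kcnq1 cluster, was the highest of the list at 253 and 242 TPM. Dcn, which encodes the matrix protein decorin, stood at 62.1 and 68.0 TPM. Slc38a4, an amino acid transporter gene, stood at 42.4 and 47.0 TPM. Slc22a2 and Slc22a3, neighbours of Igf2r that are imprinted in the placenta, were both at 0.30 TPM or below.

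The 2 libraries were close for most of the 45 genes. Of the 42 detected, 1 (2.38%) was past a log2 ratio of 0.5 in either direction, namely Snurf, against 3.41% of all detected genes (1.39% higher in replicate 2 and 2.01% lower). At a threshold of 0.25, chosen after the data were seen, 6 (14.3%) were past it, against 15.2% of all detected genes (6.5% higher and 8.72% lower). Snurf and Zrsr1 (log2 ratio 0.28) were the 2 higher in replicate 2, and Nnat, Snrpn, Meg3 and Phlda2 the 4 lower. Counted over both directions, the shares lay slightly below those of all detected genes. They lay slightly above those of detected protein-coding genes, 2.09% past 0.5 and 11.7% past 0.25.

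The differences leaned to the lower side in replicate 2. Of the 42 genes, 29 (69.0%) had a log2 ratio below 0, against 50.9% of all detected genes, and 28 (66.7%) were lower on the TPM, TMM and spike-in scales alike, against 42.2%. Under spike-in scaling, 38 (90.5%) were lower, against 81.8% of all detected genes. The median log2 ratio was -0.05 for the 42 genes and -0.0035 for all detected genes on the TPM scale, and -0.18 against -0.13 under spike-in scaling. Among the 42, the count ratio interval lay below 1 for 19 genes, against 14.8% of all detected genes, and above 1 for 6, against 13.2%. Many of the 42 are abundant and so have narrow intervals. Of the 28 with at least 1000 expected counts in replicate 1, the interval lay below 1 for 15, against 18.3% of all detected genes with as many counts, and above 1 for 4, against 18.1%.

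**Figure D4:**
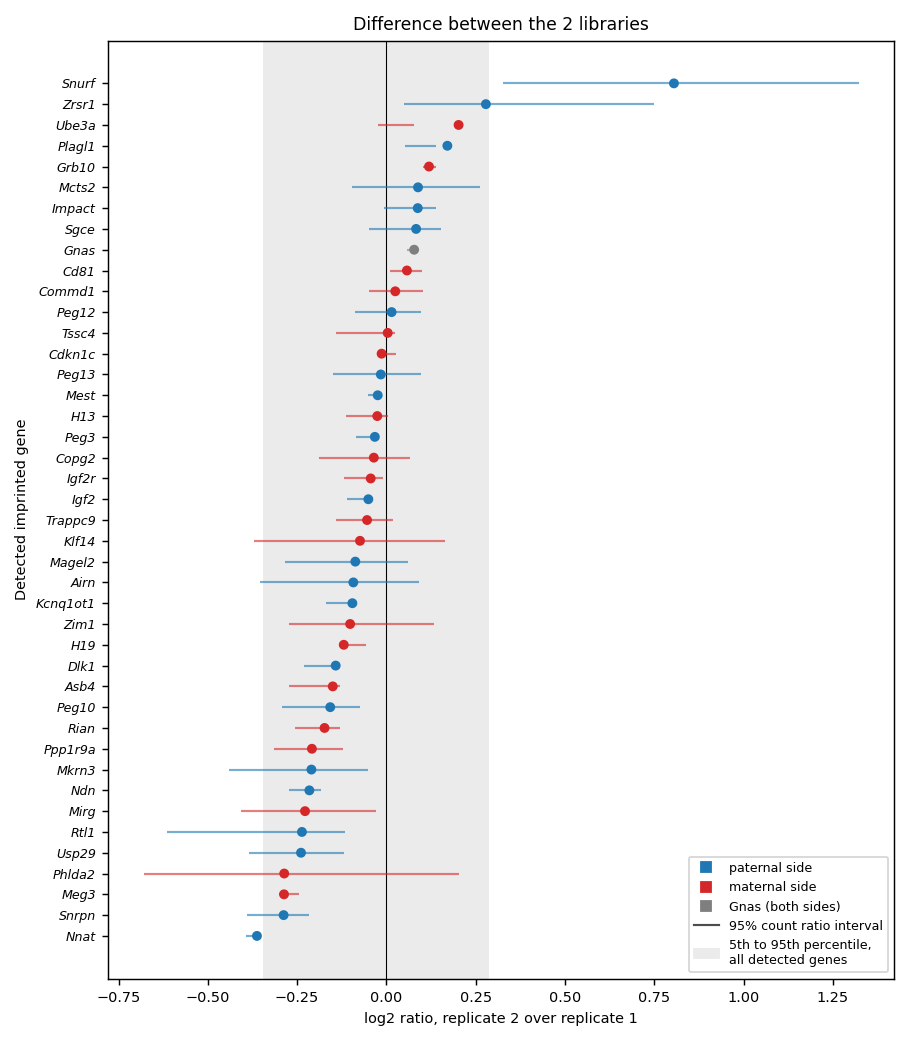
Points give the log2 ratio of TPM + 1, replicate 2 over replicate 1, of the 42 detected imprinted genes, lines the 95% interval of the expected count ratio, and the grey band the 5th to 95th percentile of all detected genes. Snurf lies right of the band and Nnat just left of it, and of the 13 points above 0 only 4 stay there under both TMM and spike-in scaling.

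Nnat had the largest difference among the detected genes lower in replicate 2, with a log2 ratio of -0.36 and a count ratio interval of 0.762 to 0.783. Snrpn, Meg3 and Phlda2 each had a log2 ratio of -0.29. Their count ratio intervals were 0.762 to 0.860 for Snrpn, 0.812 to 0.844 for Meg3 and 0.625 to 1.15 for Phlda2, of which the last included 1. Ndn had a log2 ratio of -0.22 and an interval of 0.828 to 0.881. The 6 neuron markers listed for this tissue were also all lower in replicate 2 under the 3 scalings, with summed TPM of 433 and 337 and a median log2 ratio of -0.34. Tubb3, the neuronal tubulin gene among them, stood at 158 and 115 TPM. The 5 skeletal muscle markers were higher in replicate 2 on the TPM scale, with sums of 312 and 375 TPM, and 3 of the 5 were so under all 3 scalings. The part of neurons or muscle in the differences of the imprinted genes was not tested, and in whole tissue a change in the number of such cells cannot be told apart from a change in RNA per cell.

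The tissue label fitted the markers in that all 6 facial mesenchyme genes, Prrx1, Msx1, Twist1, Alx1, Osr2 and Dlx5, were detected. Of these, Alx1 stood at 103 and 149.9 TPM and Dlx5 at 80.8 and 54.8 TPM, with log2 ratios of 0.54 and -0.55, and their part in the differences was not tested. Erythroid markers summed to 9158 and 8321 TPM. All 3 endothelial and all 3 epithelial markers were detected, as were 3 of 5 pituitary and 2 of 3 liver markers.

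The annotation release changed the level of a few imprinted genes greatly. The same libraries were also quantified with GENCODE release M4, in which 44 of the 45 symbols had a match, all but Peg13. The median ratio of M21 to M4 TPM over these was 0.949 in replicate 1 and nearly the same in replicate 2. A ratio over 1.5 or below its inverse in both libraries was found for 5 of the 44, and for 4 of the 40 detected in both releases, against 5.61% of all genes detected in both.

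Ndn stood at 266 and 228 TPM under M4 but 109 and 93.5 TPM under M21, a ratio of 0.410 in both libraries. Its expected counts hardly moved, from 7207 to 7210 in replicate 1 and from 8787 to 8793 in replicate 2. Its effective length under M4 was 0.432 of that under M21. Igf2, at 592 and 572 TPM under M4, and Gnas, at 1590.2 and 1677 TPM, stayed near their M21 levels.

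Usp29 was the opposite case, at 0.48 and 0.67 TPM under M4 and 15.1 and 12.6 TPM under M21, with 40.4 times the expected count in replicate 1. Its neighbour Zim1 had 2.23 times the count. Ube3a stood at 48.5 and 50.9 TPM under M4, with ratios of M21 to M4 of 2.30 and 2.53, and Zrsr1 had ratios of 1.54 and 1.52. Peg10 stood at 18.5 and 15.4 TPM under M4 and was lower under M21, with ratios of 0.549 and 0.585. Expected counts of 37 of the 44 genes were within 5% between the releases.

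**Figure D5:**
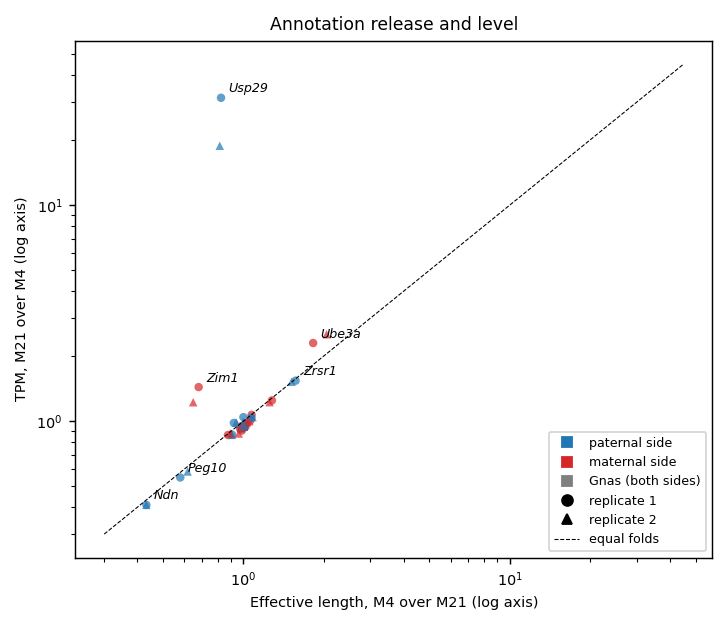
Ratio of M21 to M4 TPM of 44 imprinted genes against the ratio of their effective lengths, M4 over M21, both on log axes, circles for replicate 1 and triangles for replicate 2. Ndn, Peg10, Zrsr1 and Ube3a lie near the dashed line of equal ratios, while Usp29 lies far above it.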

How the data were processed

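The authors deposited gene and transcript tables on mm10 for both libraries, made with GENCODE M21 and again with M4, per the descriptions deposited with the files. The sources used here give no aligner, quantifier or strand setting. The deposited values are, per the file headers, expected counts (estimated reads, which need not be whole), TPM, FPKM, and the percent of a gene's abundance per transcript. TPM gave levels. Expected counts gave depth, intervals and scalings, and FPKM gave 1 alternative. A fractional expected count was held by 16 of the 45 genes. Spike-ins took 2.85% and 3.10% of expected counts and other rows that name no gene 0.000139% and 0.000114%. Both stayed out of library sizes. TMM factors were computed with edgeR 4.0.16 (R 4.3.3) on rounded expected counts, and the rest with Python 3.11.15, numpy 2.4.6, pandas 2.3.3 and scipy 1.17.1. The procedure was tested on simulated data. The 45 genes and all lists were chosen with earlier results of these data known. All 45 genes and those of the 2 lists of other imprint genes could be named. The replicates are separate pools of embryos. Alternatives covered the pseudocount, detection threshold, FPKM, TMM, spike-ins, release M4 and leaving out each library. Sequences come from RefSeq tables of GRCm38.p6.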

Additional observations from a re-analysis of the deposited data

How the results depend on the processing

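With 2 libraries the spread is known only roughly, and ratios between the libraries have no value without either of them. No paired analysis was possible because both libraries belong to 1 group. The count of detected genes stayed between 40 and 43 under all alternatives run. The median level of 34.7 TPM became 45.9 over detected genes only and 39.9 under release M4, and ranged from 34.6 to 40.1 when either library was left out. Of genes past a log2 ratio of 0.5, the 1 called became 3 without the filter on low values, which adds Kcnq1 and Slc22a18, and 6 at the threshold of 0.25 added after the data were seen. The median log2 ratio of -0.05 became -0.18 under spike-in scaling, where 9 of 45 genes turned sign, against 2 under TMM scaling, 1 with FPKM and 5 of 44 under M4. The paternal to maternal ratio of 1.08 became 0.774 with Gnas counted as maternal, 0.973 without Nnat and Cdkn1c, and 1.24 under M4. The Igf2 to H19 ratio of 1.43 became 1.5 under M4 and 1.26 from CPM. By TPM 5 genes differed between releases and by expected count 2, of which Usp29 was among the 5 and Zim1 was not. By share of expected counts, also added after the data were seen, 28 leading transcripts passed 50%, against 23. Genes below about 100 counts, among them Kcnq1, Slc22a18, Ascl2 and Phlda2, are limited by depth.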
